A study of Homo sapiens with 12 samples.

Results

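The guanylate-binding protein genes GBP1, GBP2, GBP3, GBP4 and GBP5 were followed across 4 groups of THP-1 cells, a human monocytic leukaemia line. The 5 genes were chosen by name from the 57500 gene IDs of the count tables, and GBP2 was among them because its LPS rise had been larger at 10% than at 5% CO2 in an earlier look at these libraries. All cells carried a non-target shRNA delivered by lentivirus (shNT), so every group, including the unstimulated one at 5% CO2, is a transduced line and not the parental one. Groups were 10% CO2 (buffered hypercapnia) with LPS, 5% CO2 (normocapnia) with LPS, 10% CO2 without LPS and 5% CO2 without LPS, with 3 libraries each and 12 in all. The CO2 exposure lasted 4 h, and LPS, the lipopolysaccharide of Gram-negative bacteria, was given at 2.5 µg/ml for the last 2 h. The series was set up to ask how raised CO2 at buffered pH changes monocyte transcription at rest and under an inflammatory stimulus.

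Guanylate-binding proteins are large GTPases of the dynamin superfamily. They are best known as products induced by interferon, above all interferon-gamma, through JAK kinases and the transcription factor IRF1. Their proteins gather on the surface of bacteria and on the vacuoles of intracellular pathogens, where they help to expose LPS to caspase-4 and so to start pyroptosis. GBP1, GBP2 and GBP5 end in a CaaX box and are anchored to membranes by a prenyl group, which GBP3 and GBP4 lack.

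The libraries held 17132910 to 22151327 counted fragments, and 3 counts, taken as the floor of detection, were worth 0.135 to 0.175 CPM (counts scaled to a common library size) in them. Floors and counting intervals cover counting error only, since the protocol mentions no molecular identifiers. All 12 monocyte markers examined were above that floor in every library, and their summed level was 816 to 1148 CPM over the 12 libraries. T and B cell markers summed to 1.89 to 4.77 CPM, with CD3E and MS4A1 at or under the floor in every library. The 9 epithelial, fibroblast, endothelial and red cell markers summed to 201 to 415 CPM, nearly all of it PECAM1, which monocytes also express, and HBB and HBA1 were at or under the floor. The mitochondrial share of counts moved with CO2. It was 2.28 to 4.15% at 10% CO2 with LPS and 1.28 to 1.78% at 5% CO2 with LPS, and 2.01 to 3.05% at 10% CO2 and 1.31 to 1.96% at 5% CO2 without LPS. Its part in the CO2 comparisons was not tested. In bulk RNA, fewer cells expressing a gene and less RNA per cell cannot be told apart.

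The 5 genes lie in 1 cluster on the minus strand of chromosome 1 (GRCh38), within 266139 bases. From low to high coordinates they are GBP3 (chr1:89006666-89022894), GBP1 (chr1:89052319-89065360), GBP2 (chr1:89106132-89150456), GBP4 (chr1:89181148-89198932) and GBP5 (chr1:89258950-89272804). Of these, 3 had an entry in the RefSeq promoter table (GRCh38.p14), which covers 250 bases before and 50 bases after the annotated start. Their promoters are printed because the genes share an interferon-type element but had unlike LPS responses. Capitals mark matches to the core of the interferon-stimulated response element (ISRE, GAAA, any 2 bases, GAAA) and to the gamma-activated site (GAS, TTCNNNGAA), both searched on both strands. All 3 are read 5′ to 3′ on the minus strand, at chr1:89065159-89065458 for GBP1, chr1:89022817-89023116 for GBP3 and chr1:89198893-89199192 for GBP4.
GBP1: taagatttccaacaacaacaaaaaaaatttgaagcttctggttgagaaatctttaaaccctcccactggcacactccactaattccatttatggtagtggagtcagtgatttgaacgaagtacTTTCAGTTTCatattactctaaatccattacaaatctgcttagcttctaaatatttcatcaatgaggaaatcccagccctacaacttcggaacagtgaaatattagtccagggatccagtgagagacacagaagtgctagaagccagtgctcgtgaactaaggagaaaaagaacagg
GBP3: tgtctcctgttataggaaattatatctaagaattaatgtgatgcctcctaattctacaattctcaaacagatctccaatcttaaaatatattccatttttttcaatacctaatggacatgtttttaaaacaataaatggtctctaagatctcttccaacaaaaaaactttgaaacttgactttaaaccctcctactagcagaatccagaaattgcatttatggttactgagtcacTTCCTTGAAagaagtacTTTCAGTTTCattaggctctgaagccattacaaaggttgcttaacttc
GBP4: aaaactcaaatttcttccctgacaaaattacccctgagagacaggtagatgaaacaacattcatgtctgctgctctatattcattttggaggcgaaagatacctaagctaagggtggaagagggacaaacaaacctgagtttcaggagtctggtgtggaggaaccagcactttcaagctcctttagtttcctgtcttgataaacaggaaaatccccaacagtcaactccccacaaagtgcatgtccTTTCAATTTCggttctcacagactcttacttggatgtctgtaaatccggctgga
Each promoter held 1 ISRE core, which read TTTCAGTTTC in GBP1 and GBP3 and TTTCAATTTC in GBP4, the reverse complement of the letters searched. The ISRE core was found in 3.57% of 35116 RefSeq promoters of 300 bases. GBP3 alone of the 3 held a GAS match, TTCCTTGAA, which lies upstream of its ISRE core without overlapping it and reads as a match on both strands. GAS matches occurred in 7.66% of all promoters. A kappaB site, the motif of NF-kappaB, was found in GBP4 only, as GGAAAATCCC (in lower case above), against 11.3% of all promoters. These matches describe the letters in the window and say nothing of binding.

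The levels of the 5 genes differed widely. Per kilobase of exon (RPKM), GBP5 was highest at 10% CO2 with LPS, at 11.7 ± 1.92 (mean ± SD, n = 3 here and below), followed by GBP3 at 9.45 ± 0.52, GBP2 at 8.86 ± 0.52, GBP4 at 1.34 ± 0.05 and GBP1 at 0.299 ± 0.016. In the 5% CO2 cells without LPS, the RPKM levels were 2.28 ± 0.07 for GBP5, 2.10 ± 0.30 for GBP3, 1.24 ± 0.27 for GBP4, 0.586 ± 0.071 for GBP2 and 0.0227 ± 0.0049 for GBP1. GBP2 thus stood below GBP4 without LPS and above it with LPS. On this scale the ranges of GBP2 and GBP3 overlapped in both LPS groups.

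The summed level of the 5 genes was 31.7 ± 2.87 RPKM at 10% CO2 with LPS, 23.2 ± 2.40 RPKM at 5% CO2 with LPS, 5.91 ± 0.46 RPKM at 10% CO2 and 6.23 ± 0.53 RPKM at 5% CO2. GBP2 made up 28.1 ± 1.78% of that sum at 10% CO2 with LPS and 28.4 ± 1.82% at 5% CO2 with LPS, against 6.46 ± 1.69% at 10% CO2 and 9.44 ± 1.04% at 5% CO2. The share of GBP4 ran the other way, at 4.26 ± 0.25% and 7.04 ± 0.72% in the LPS groups at 10% and 5% CO2, against 15.4 ± 4.51% and 19.8 ± 2.99% in the groups without LPS at 10% and 5% CO2. GBP5 and GBP3 together held most of the pool in every group.

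**Figure D1:**
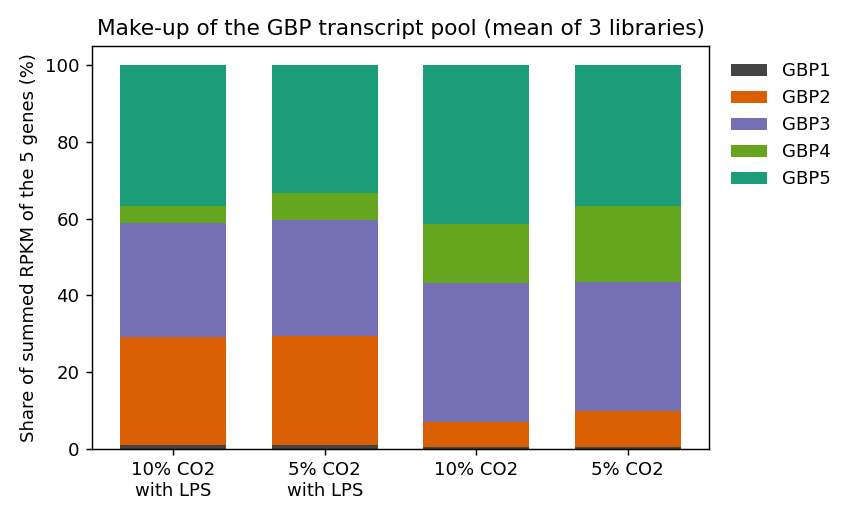
Mean share of each gene in the summed RPKM of GBP1 to GBP5 (y axis, percent) in the 4 groups (x axis, 3 libraries each). GBP2 takes 28.1% and 28.4% of the pool in the LPS groups and 6.46% and 9.44% without LPS, while GBP4 takes 4.26% and 7.04% with LPS and 15.4% and 19.8% without.

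LPS raised GBP2, GBP3, GBP4 and GBP5. Averaged over the CO2 levels, each of these 4 was higher with LPS at an adjusted p under 0.05 (edgeR quasi-likelihood test, Benjamini-Hochberg over 16402 genes), where 44.3% of the genes tested were called, 20.4% higher and 23.8% lower. Among them the averaged log2 rise ranged between 0.47 in GBP4 and 4.01 in GBP2.

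GBP2, a prenylated member that also restrains furin and so the maturation of HIV envelope, had 54.1, 59.4 and 53.3 CPM in the 3 libraries at 10% CO2 with LPS and 43.2, 35.0 and 46.0 CPM at 5% CO2 with LPS. Without LPS it had 3.00, 1.82 and 2.34 CPM at 10% CO2 and 4.20, 3.41 and 3.43 CPM at 5% CO2. No range overlapped that of another group, and the order was 10% CO2 with LPS, 5% CO2 with LPS, 5% CO2, 10% CO2. The averaged LPS change was 4.01 ± 0.11 on the log2 scale (± SE, adjusted p = 3.00e-16). At 10% CO2 the log2 change was 4.53 ± 0.16 and at 5% CO2 it was 3.49 ± 0.15. These last values, and the order of the CO2 levels within each LPS state, belong to the contrast that led to the choice of GBP2. They are given without a test, and how many of all genes separated in this way was not counted.

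GBP5, a prenylated member reported to promote assembly of the NLRP3 inflammasome, had 78.1, 108.7 and 99.1 CPM at 10% CO2 with LPS and 62.1, 55.8 and 70.7 CPM at 5% CO2 with LPS. Without LPS it had 16.9, 19.6 and 23.6 CPM at 10% CO2 and 17.9, 18.9 and 18.9 CPM at 5% CO2. All LPS libraries were above all libraries without LPS, and the groups without LPS overlapped. Averaged over CO2, GBP5 rose with LPS by 2.01 ± 0.10 (adjusted p = 2.83e-12). GBP3, which lacks the prenyl anchor and joins the caspase-4 platform, had 38.2, 42.6 and 41.0 CPM at 10% CO2 with LPS and 27.4, 29.2 and 34.1 CPM at 5% CO2 with LPS, against 8.64, 9.82 and 9.08 CPM at 10% CO2 and 9.07, 7.71 and 10.3 CPM at 5% CO2. Its pattern was ordered like that of GBP5, and its averaged LPS rise was 1.94 ± 0.09 (adjusted p = 6.90e-13).

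GBP1, the founding member, which binds LPS directly and starts the platform, was the scarcest. It had 24, 25 and 33 counts at 10% CO2 with LPS and 24, 18 and 21 counts at 5% CO2 with LPS, against 3, 1 and 3 counts at 10% CO2 and 2, 2 and 3 counts at 5% CO2. The libraries without LPS were therefore at or under the floor. Scaled for depth, the summed counts at 10% CO2 were 11.9 times as high with LPS as without (82 against 7 counts, exact 95% counting interval 5.52 to 30.5). At 5% CO2 the ratio was 8.37 (63 against 7 counts, interval 3.83 to 21.7). GBP1 passed the filter on low counts through the LPS libraries alone, so no test or call of its LPS change is given.

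GBP4, which has no prenyl anchor, responded least. It had 7.97, 8.54 and 8.20 CPM at 10% CO2 with LPS and 10.2, 9.75 and 9.82 CPM at 5% CO2 with LPS, against 6.87, 3.64 and 6.22 CPM at 10% CO2 and 9.02, 5.78 and 7.97 CPM at 5% CO2. Libraries with LPS were above those without LPS at each CO2 level, but the 10% CO2 libraries with LPS overlapped the 5% CO2 libraries without it. The averaged LPS rise was 0.47 ± 0.14 (adjusted p = 0.00853).

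**Figure D2:**
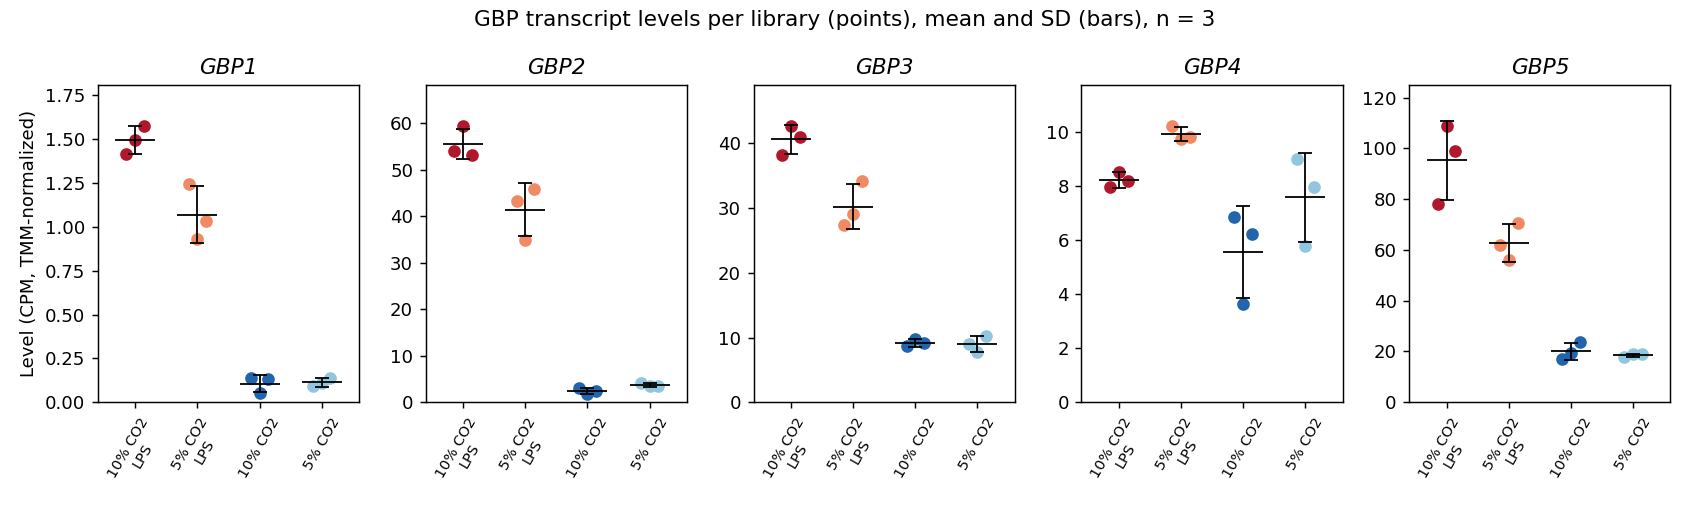
TMM-normalized level (y axis, CPM, linear and starting at 0, with its own scale per gene) of GBP1 to GBP5 in each library (points) of the 4 groups, with mean and SD (bars, n = 3). GBP2 lies between 35.0 and 59.4 CPM with LPS and between 1.82 and 4.20 CPM without, while GBP4 stays between 3.64 and 10.2 CPM throughout.

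Taken at each CO2 level alone, the LPS tests are given for GBP3, GBP4 and GBP5. At 10% CO2 all 3 were higher with LPS, where 35.2% of genes were called, 16.6% higher and 18.6% lower. The log2 changes were 2.15 ± 0.12 for GBP3 (adjusted p = 5.82e-11), 2.25 ± 0.14 for GBP5 (adjusted p = 1.86e-10) and 0.56 ± 0.20 for GBP4 (adjusted p = 0.0334). The GBP4 call at 10% CO2 was lost on leaving out any of the 3 libraries at 10% CO2 with LPS (adjusted p = 0.0550, 0.0788 and 0.0721 for replicates 1, 2 and 3) or replicate 2 at 10% CO2, the lowest GBP4 library (log2 change 0.33, adjusted p = 0.176). At 5% CO2, 2 of the 3 were higher, where 24.9% of genes were called, 11.8% higher and 13.1% lower. GBP3 rose by 1.74 ± 0.12 (adjusted p = 1.89e-09) and GBP5 by 1.76 ± 0.14 (adjusted p = 8.37e-09). GBP4 had a log2 change of 0.38 ± 0.19 (adjusted p = 0.157), and no test compared it with the GBP4 change at 10% CO2.

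The log2 change with LPS was larger at 10% than at 5% CO2 by 1.04 ± 0.22 (SE) in GBP2, 0.49 ± 0.19 in GBP5, 0.41 ± 0.17 in GBP3 and 0.17 ± 0.27 in GBP4, and is not given for GBP1, which was at or under the floor without LPS. This is the measure that led to the choice of the genes, so it is given as a description only. For GBP2 the difference came from both sides: its level was higher at 10% CO2 with LPS than at 5% CO2 with LPS (log2 difference 0.42 ± 0.12) and lower at 10% CO2 than at 5% CO2 without LPS (log2 difference -0.62 ± 0.18).

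CO2 gave fewer calls than LPS, in the family as among all genes. Averaged over the LPS states, GBP5 alone of the 5 was called, where 16.7% of all genes were called, 8.06% higher and 8.68% lower. GBP5 was 0.36 ± 0.09 log2 units higher at 10% than at 5% CO2 (adjusted p = 0.0149). The log2 differences were 0.22 ± 0.09 in GBP3 (adjusted p = 0.0809), -0.36 ± 0.14 in GBP4 (adjusted p = 0.0783) and -0.10 ± 0.11 in GBP2 (adjusted p = 0.582). GBP1 had an adjusted p of 0.757, but its counts without LPS were at or under the floor, so its averaged test can decide little. GBP3 passed the threshold without replicate 3 at 5% CO2 or replicate 3 at 5% CO2 with LPS, and GBP4 without replicate 2 at 5% CO2 or replicate 1 at 10% CO2, so that 2 of 5 were called in each of these 4 fits. GBP4 also passed in edgeR with no low-count filter (adjusted p = 0.0410) or with a replicate block (adjusted p = 0.0402).

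With LPS present, tests are given for all but GBP2, and 2 of the 4 genes were higher at 10% than at 5% CO2, where 8.75% of genes were called, 4.29% higher and 4.46% lower. GBP5 averaged 95.3 ± 15.6 CPM at 10% CO2 with LPS and 62.9 ± 7.45 CPM at 5% CO2 with LPS (log2 difference 0.60 ± 0.13, adjusted p = 0.00896). GBP3 averaged 40.6 ± 2.24 CPM at 10% CO2 with LPS and 30.2 ± 3.50 CPM at 5% CO2 with LPS (log2 difference 0.43 ± 0.11, adjusted p = 0.0259). The CPM ranges of the LPS groups did not overlap in any of the 5 genes, though GBP1 and GBP4 were not called. How many of all genes separated in this way was not counted, so the separation is a description only. In GBP4 the 10% CO2 libraries were the lower ones, at 8.24 ± 0.29 CPM against 9.93 ± 0.25 CPM at 5% CO2 (log2 difference -0.27 ± 0.19, adjusted p = 0.397), and in GBP1 the 10% CO2 counts were 1.37 times as high (82 against 63 counts, exact 95% interval 0.972 to 1.93, adjusted p = 0.322). Both calls depended on single libraries. Without replicate 2 at 10% CO2 with LPS, or replicate 2 at 5% CO2 with LPS, neither gene was called (adjusted p = 0.0701 and 0.0528 for GBP5, 0.122 and 0.0982 for GBP3), although both had an unadjusted p under 0.05 each time. GBP3 also lost its call without replicate 1 at 5% CO2 with LPS (adjusted p = 0.131) or replicate 3 at 10% CO2 with LPS (adjusted p = 0.0688).

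Without LPS, none of GBP3, GBP4 and GBP5 was called between 10% and 5% CO2 by edgeR's quasi-likelihood test or by DESeq2. Of all genes tested by edgeR, 1.46% were called, 0.799% higher and 0.665% lower. Of GBP3, GBP4 and GBP5, only GBP4 had an unadjusted p under 0.05. The log2 differences were 0.02 ± 0.13 in GBP3 (adjusted p = 0.959), 0.11 ± 0.14 in GBP5 (adjusted p = 0.714) and -0.44 ± 0.19 in GBP4 (adjusted p = 0.242), and the groups overlapped in each of them. GBP1 was at or under the floor in both groups, so no test of it is given here. The 4 comparisons within a CO2 level or an LPS state share their groups pairwise, so their values are not independent of one another.

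**Figure D3:**
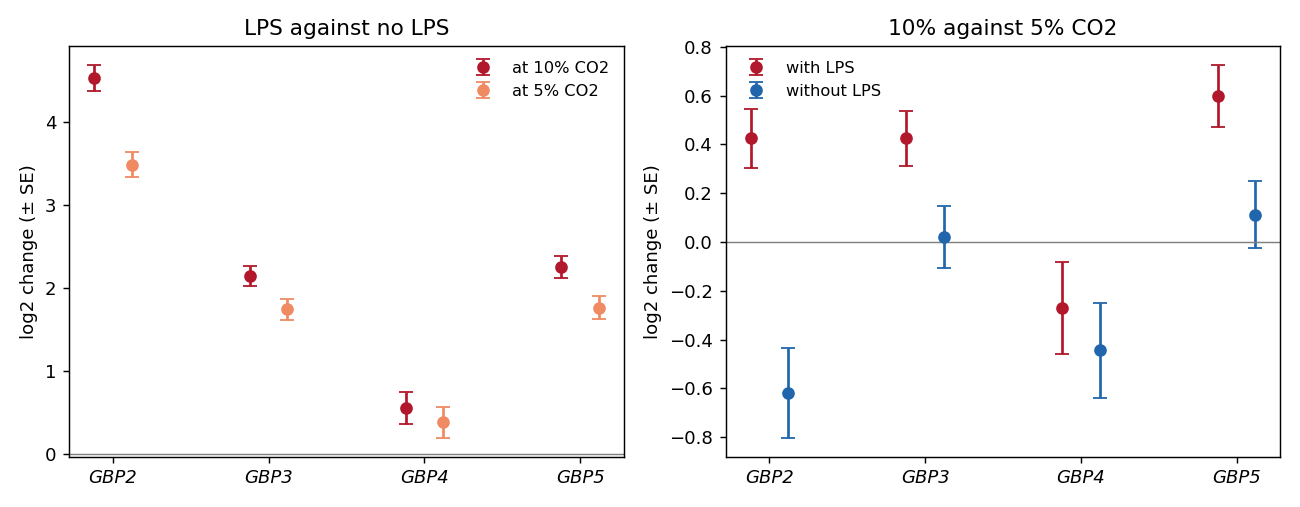
Fitted log2 changes with SE (y axis) of GBP2 to GBP5 for LPS within each CO2 level (left) and for 10% against 5% CO2 in each LPS state (right). GBP1 is left out because its counts without LPS were at or under the floor. With LPS present GBP2, GBP3 and GBP5 lie above 0 and GBP4 below, at -0.27.

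Relatives of the family were scarce in these cells. GBP6 reached at most 3 counts and GBP7 at most 2 in any library, so neither was above the floor. GBP7 overlaps GBP2 on the same strand over 621 exon bases, 9.89% of the exon length of GBP2 and 25.3% of that of GBP7. The pseudogene GBP1P1 had 56, 71 and 67 counts at 10% CO2 with LPS and 54, 55 and 45 counts at 5% CO2 with LPS, against 4, 7 and 7 counts at 10% CO2 and 4, 3 and 5 counts at 5% CO2, more in each library than GBP1 itself. Of the windows of 100 bases in GBP1 transcripts, 1.66% were also present in GBP1P1, while no such window was shared in the annotated transcripts searched between GBP1 to GBP5, or between GBP6 or GBP7 and any of them. How fragments matching both were counted was not given in the sources used here, so the GBP1 counts carry that uncertainty.

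The genes with profiles most like each member over the 12 libraries were taken as those with the smallest root mean square difference of mean-centred log2 CPM. HIVEP1, a zinc finger factor, was nearest to GBP2 at 0.16 log2 units, followed by IL4I1 and TNFAIP2. GBP5 was nearest to PRKAR1B-AS1 at 0.16 and then to GBP3 at 0.17, the one pairing inside the family. NAB1 was nearest to GBP3 at 0.13, F3, which encodes tissue factor, to GBP4 at 0.16, and MFSD2A to GBP1 at 0.10. The GBP1 profile is flattened by the pseudocount of 0.5 CPM, which exceeds its level without LPS.

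The pathway around the family was read from the ligands downward, with changes averaged over the other factor. The counts of called genes in each list stand against 20.4% higher and 23.8% lower of all genes tested for LPS, and 8.06% higher and 8.68% lower for CO2. Among 13 interferon ligands and receptors, 6 could be tested. With LPS 3 were called higher, among them IFNB1, which passed the filter on low counts through the LPS libraries alone, and 1 fell, a median log2 change of 0.26 against -0.02 for all genes. IFNB1, the interferon-beta gene, had 51 counts at 10% CO2 with LPS and 44 counts at 5% CO2 with LPS, against 4 and 0 counts without LPS, summed over 3 libraries. IFNGR2, a chain of the interferon-gamma receptor, rose by 1.53 ± 0.09 (adjusted p = 2.97e-10) and IFNAR2, of the interferon-alpha/beta receptor, by 0.33 ± 0.07 (adjusted p = 0.00145), while IFNGR1, the other gamma receptor chain, fell by 0.35 on the log2 scale (SE 0.09, adjusted p = 0.00278). IFNG, which encodes interferon-gamma, IFNA1, IFNA2, IFNL1, IFNL2 and IFNL3 never exceeded 3 counts in a library. None of the 6 was called between CO2 levels in the edgeR fit or by the DESeq2 Wald test (the edgeR fit with a replicate block called 1 lower). In edgeR, IFNB1 and IL10RB had an unadjusted p under 0.05, but IFNB1 had only 4 and 0 counts without LPS at 10% and 5% CO2. With LPS, the depth-scaled IFNB1 counts were 1.22 times as high at 10% as at 5% CO2 (exact 95% counting interval 0.797 to 1.86). The list's median for CO2 was -0.11 against -0.01 for all genes.

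Of 16 JAK, STAT and IRF genes, 7 rose and 5 fell with LPS, with a median of -0.02 that equalled the median of all genes. IRF9, the DNA-binding part of the ISGF3 complex, rose by 0.83 ± 0.13 (adjusted p = 3.73e-05). IRF5 fell by 1.16 (adjusted p = 6.00e-11), BATF2 by 1.08 (adjusted p = 3.88e-06) and IRF2 by 0.53 (adjusted p = 1.92e-05) on the log2 scale. Between CO2 levels the median was -0.05. IRF1, a factor well known for inducing the GBP genes, was lower at 10% CO2, at -0.38 ± 0.09 (adjusted p = 0.00631). It averaged 47.1 CPM at 10% CO2 with LPS and 57.1 CPM at 5% CO2 with LPS, and 30.1 CPM at 10% CO2 and 42.1 CPM at 5% CO2 without LPS. The averaged CO2 differences of the GBP genes ran from -0.36 in GBP4 to 0.36 in GBP5, and a link to IRF1 was not tested.

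Among 8 brakes on interferon signalling, 3 rose and 4 fell with LPS, with a median of -0.18, and 2 fell without replicate 1 at 10% CO2 with LPS. SOCS3, an inhibitor of JAK signalling, rose by 5.69 ± 0.12 (adjusted p = 2.46e-16) and the phosphatase gene PTPN2 by 0.75 ± 0.07 (adjusted p = 8.02e-08). SOCS1, the main brake on interferon-gamma signalling, fell by 1.76 (adjusted p = 4.04e-05) and PIAS1 by 0.41 (adjusted p = 0.000223) on the log2 scale. At 10% CO2 the phosphatase gene PTPN6 was lower, at -0.21 ± 0.06 (adjusted p = 0.0276), a call that was lost on leaving out any of 7 of the 12 libraries one at a time (adjusted p up to 0.0952), and 0 to 3 of the list were called lower in the 12 such fits, against 2 by DESeq2. The median for CO2 was -0.18.

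Of the chain that leads from TLR4, the LPS receptor, to interferon-beta, 7 of 9 genes could be tested. With LPS 6 rose and none fell, with a median of 0.96. The adaptor genes TICAM1 and MYD88 rose by 2.49 ± 0.09 (adjusted p = 2.98e-14) and 0.44 ± 0.07 (adjusted p = 1.74e-05), the ubiquitin ligase gene TRAF3 by 1.84 ± 0.07 (adjusted p = 3.43e-14) and the kinase gene IKBKE by 0.96 ± 0.07 (adjusted p = 1.97e-09). LY96, which encodes the TLR4 partner MD-2, had only 1 to 14 counts a library. At 10% CO2 TRAF3 was higher by 0.32 ± 0.07 (adjusted p = 0.00372), and the other 6 were not called (median -0.07). Of those 6, TLR4 (-0.43 ± 0.14, adjusted p = 0.0589) and IKBKE (0.17 ± 0.07, adjusted p = 0.114) had an unadjusted p under 0.05. Still, 1 gene of the chain was called lower by DESeq2, with no low-count filter, with a replicate block, and in 3 of the 12 edgeR fits without 1 library.

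Among 30 other genes known as interferon-gamma targets, 28 were tested. With LPS 11 were called higher and 4 fell, a median of 0.10. Among the 11, CXCL9, CXCL11 and CD274 passed the filter through the LPS libraries alone. CXCL10, also among them, was scarce without LPS. At 10% and 5% CO2 without LPS, CXCL10 averaged 0.541 and 0.422 CPM, and CD274 averaged 0.411 and 0.327 CPM. GCH1, the entry enzyme of biopterin synthesis, rose by 4.55 ± 0.11 (adjusted p = 4.84e-16) and the adhesion receptor gene ICAM1 by 5.94 ± 0.14 (adjusted p = 5.31e-14). The chemokine gene CXCL9 had 276 counts at 10% CO2 with LPS and 183 counts at 5% CO2 with LPS, against 1 count in each group without LPS. CXCL11 had 1069 and 571 counts with LPS at 10% and 5% CO2, against 6 counts in each group without LPS. At 10% CO2, 4 were higher and 2 lower, with a median of 0.02. GCH1 was higher by 0.42 ± 0.11 (adjusted p = 0.0152) and FCGR1A, the high-affinity Fc receptor gene, by 0.25 ± 0.06 (adjusted p = 0.00654). CD38, an NAD-consuming surface enzyme gene, was lower, at -0.61 ± 0.09 (adjusted p = 0.000392) and so was TAPBP, of the peptide-loading complex, at -0.28 ± 0.09 (adjusted p = 0.0338). The TAPBP call was lost in 7 of the 12 fits without 1 library (adjusted p up to 0.0922), and 2 to 3 genes of the list were called higher and 1 to 4 lower in those fits. The lower count was 1 without replicate 3 at 5% CO2 with LPS, replicate 1 at 10% CO2 or replicate 2 at 10% CO2 with LPS, and 4 without replicate 3 at 5% CO2 or replicate 3 at 10% CO2 with LPS. It was also 4 by DESeq2 and 5 with no low-count filter.

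Of 11 other large GTPase genes, 7 were tested, and 2 rose and 1 fell with LPS (median 0.07). IRGQ rose by 1.88 ± 0.09 (adjusted p = 9.66e-13) and ATL2 by 0.32 ± 0.07 (adjusted p = 0.000701), while ATL3, an atlastin of the endoplasmic reticulum like ATL2, fell by 0.48 on the log2 scale (adjusted p = 0.000205). The antiviral dynamin-like genes MX1 and MX2 were lower at 10% CO2, at -0.42 ± 0.09 (adjusted p = 0.00472) and -0.47 ± 0.11 (adjusted p = 0.00739), and none was higher (median -0.04). Of 14 effectors and partners of GBPs, 11 were tested. With LPS 6 rose and 3 fell, a median of 0.33, led by IL1B at 7.73 ± 0.14 (adjusted p = 1.06e-14), the kinase gene PIM1 at 2.18 ± 0.12 (adjusted p = 1.01e-10), the membrane-rupture gene NINJ1 at 1.95 ± 0.12 (adjusted p = 5.85e-09) and SQSTM1 at 1.64 ± 0.15 (adjusted p = 4.00e-06). AIM2 never exceeded 3 counts in a library. At 10% CO2 the inflammasome sensor gene NLRP3 was lower, at -0.42 ± 0.08 (adjusted p = 0.00268) and none was higher (median -0.01).

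The list of CaaX prenylation enzymes held 8 genes of the pathway behind the anchor that GBP1, GBP2 and GBP5 carry. With LPS 1 rose and 4 fell, with a median of -0.08. The rise, in RCE1 (0.22 ± 0.08, adjusted p = 0.0443), was lost on leaving out most single libraries. FNTB, FNTA and PGGT1B, subunits of the farnesyl and geranylgeranyl transferases, fell by 0.39 (adjusted p = 0.00274), 0.23 (adjusted p = 0.00354) and 0.23 (adjusted p = 0.0160), and the methyltransferase gene ICMT fell by 0.20 (adjusted p = 0.00767), all on the log2 scale. The protease gene ZMPSTE24 was higher at 10% CO2 by 0.28 ± 0.07 (adjusted p = 0.0106), and the other 7 were not called (median 0.02).

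**Figure D4:**
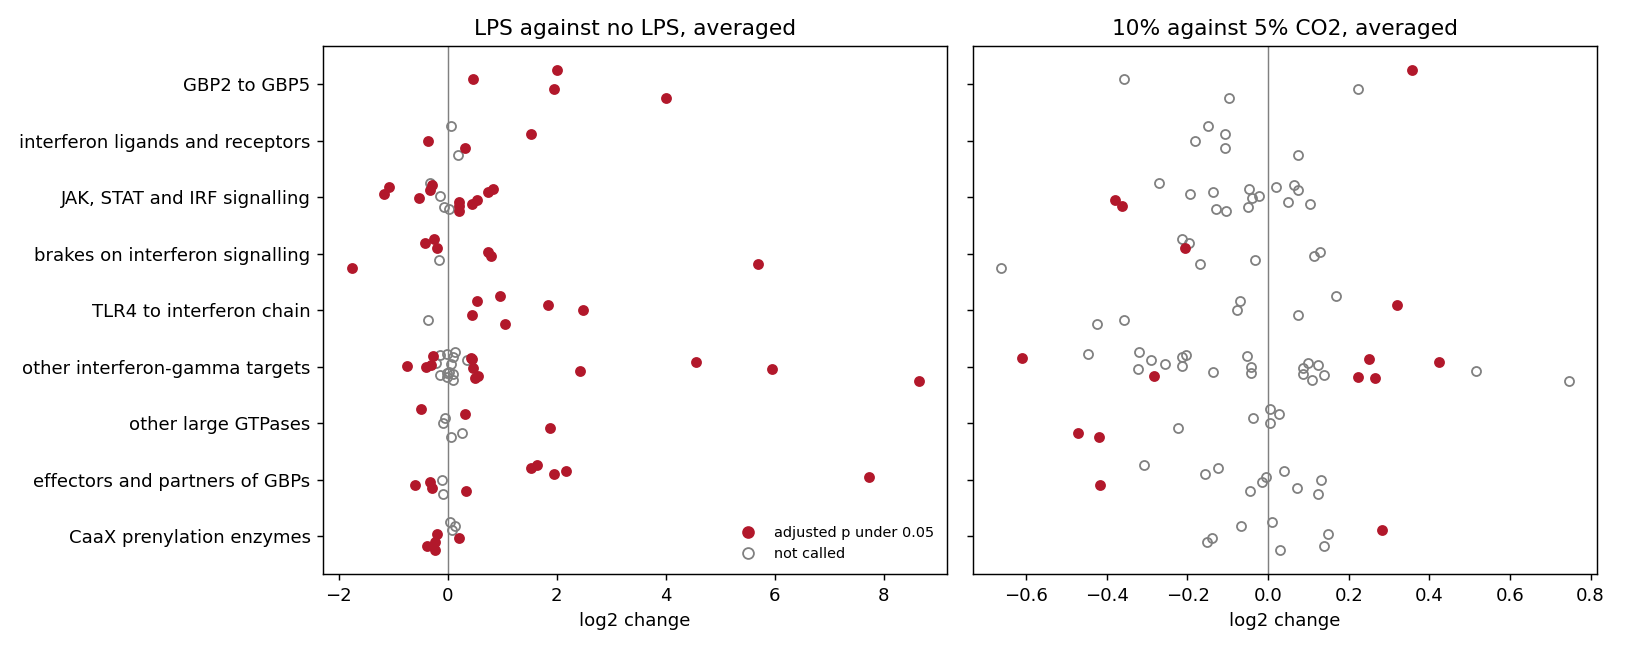
Log2 change (x axis) for LPS against no LPS (left) and 10% against 5% CO2 (right), each averaged over the other factor, for GBP2 to GBP5 and for 88 genes of 8 pathway lists whose mean level without LPS was above the floor at both CO2 levels. Filled points passed an adjusted p under 0.05. For LPS they include CD274, which passed the filter on low counts through the LPS libraries alone. The horizontal scales differ: the LPS changes reach 8.65 in CXCL10, while the CO2 changes lie between -0.66 in SOCS1 and 0.75 in CXCL10, neither of which was called for CO2.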

How the data were processed

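THP-1 shNT cells gave 12 poly(A)-selected paired-end libraries. The authors deposited raw counts per Ensembl gene. The submitters' processing notes name Trimmomatic 0.36, STAR 2.5.2b, featureCounts of Subread 1.5.2 and GRCh38; strand setting, multimapping rule and annotation release were not given in the sources used here. Of 57500 gene IDs, 40907 (99.1% of counts) had a symbol. Members and gene lists were chosen with earlier results of these data known. One model over the 4 groups was fitted with edgeR 4.0.16 (R 4.3.3; TMM, filterByExpr, quasi-likelihood test, Benjamini-Hochberg over 16402 genes) and tested on simulated data; averaged contrasts give each factor the mean over the other. CPM (counts scaled to a fixed library total) and RPKM (the same per kilobase of exon) were computed from TMM-scaled counts. All 5 members passed the filter, GBP1 through the LPS libraries alone. For each pathway list and averaged contrast, up to 4 called genes with the smallest p are named, with genes at the floor (1 list gene is not reported here); for likeness, the 3 nearest genes of at least 5 CPM were sought. Alternatives were DESeq2 1.42.0 (size factors, Wald test), no filter, a replicate block, fits of only the compared groups and leaving out each library; those on list genes were chosen after seeing the data. No label says whether replicates came from different cultures; p-values then reflect just the library-to-library spread, which may be technical. Libraries of 1 group differed beyond sampling noise (chi-square over its degrees of freedom, 8.91 to 29.2).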

Additional observations from a re-analysis of the deposited data

How the results depend on the processing

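Of 2063 values recomputed under the alternatives, 1935 kept their direction and their side of the threshold, or stayed within the tolerance set for counts. The averaged LPS rise kept its call in GBP2, GBP3, GBP4 and GBP5, and the averaged CO2 difference of GBP5 kept its call, under every alternative run for them. IRF1, MX1, MX2, NLRP3, TRAF3, GCH1, CD38, FCGR1A and ZMPSTE24 also kept their averaged CO2 calls. For 10% against 5% CO2 averaged over LPS, 2 of the 5 members were called with no low-count filter (GBP4 added, adjusted p = 0.0410), and 1 to 2 on leaving out single libraries, with 818 to 1500 genes called higher and 757 to 1559 lower. For CO2 with LPS, 0 to 2 of 4 members were called on leaving out single libraries, with 150 to 869 genes higher and 121 to 943 lower. For CO2 without LPS, 131 genes were called higher and 109 lower. No filter gave 323 and 249, the DESeq2 Wald test 354 and 315, and the fit of only the compared groups 45 and 26. Leaving out single libraries gave 0 to 257 higher and 0 to 256 lower. Without 10% CO2 replicate 2, edgeR called 0 genes, and 905 and 940 had an unadjusted p under 0.05. In that comparison the log2 difference ran over -0.0751 to 0.126 in GBP3 on leaving out single libraries, below 0 without 5% CO2 replicate 2 (-0.0751) or 10% CO2 replicate 2 (-0.0281), and over -0.0247 to 0.224 in GBP5, below 0 without 10% CO2 replicate 3; neither gene was called in any of them. GBP2 had -0.82 there, and an LPS change of 4.73 at 10% CO2, without 10% CO2 replicate 1. The cause of these shifts was not tested. Counts of 1 to 3 per library limit what can be said of GBP1 without LPS.

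The labels give the groups the same replicate numbers but no shared culture or day. Same-numbered libraries deviated together with correlations of -0.136 to 0.290 over 18 pairs, of which 9 were over 0.1, and 6 of 12 libraries correlated best with their own number, so the numbers were not taken to pair the samples. Within 10% CO2 alone, all 3 same-numbered pairs with and without LPS were over 0.1 (0.106 to 0.251), and the block changed no call of a member in that comparison. With the replicate block, 2 of 5 members were called for CO2 averaged over LPS (GBP4 added, adjusted p = 0.0402), 1133 genes were lower for CO2 with LPS, and 337 genes were higher and 363 lower for CO2 without LPS.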

Other observations

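The genes around the GBP cluster were also read, in a window of 1 Mb on either side on chromosome 1, which was chosen after their values were seen. With LPS, averaged over CO2, the divergent transcript LRRC8D-DT was higher by 2.24 ± 0.10 log2 units (edgeR, adjusted p = 7.63e-13), the pseudogene PTGES3P1, which lies between GBP1 and GBP2, by 1.39 ± 0.19 (adjusted p = 8.45e-06), RBMXL1 by 0.85 ± 0.07 (adjusted p = 2.91e-09) and GTF2B, a general transcription factor gene, by 0.58 ± 0.06 (adjusted p = 2.30e-07). LRRC8C, a subunit gene of volume-regulated anion channels, fell by 1.20 on the log2 scale (adjusted p = 8.09e-09), and its neighbour LRRC8D changed by 0.18 ± 0.06 (adjusted p = 0.0147). Between CO2 levels, KYAT3, which lies just beyond GBP3, was lower at 10% CO2, at -0.32 ± 0.07 (adjusted p = 0.00467), LRRC8D-DT was lower, at -0.35 ± 0.10 (adjusted p = 0.0223) and LRRC8B was higher by 0.35 ± 0.12 (adjusted p = 0.0456).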
